A study of Mus musculus with 5 samples.

Results

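Mitochondrial ribosomal protein genes were followed through 4 mouse heart libraries in which propionylation of lysine 23 of histone H3 (H3K23Pr), an acyl mark, was profiled by chromatin immunoprecipitation and sequencing. Every gene whose symbol starts with Mrpl or Mrps and a digit was taken from the gene lists of the deposited regions, and each gene was represented by its region with the highest mean signal over the 4 libraries. This gave 75 genes (46 Mrpl and 29 Mrps) of 18161 with a region, on 74 of 30965 regions, because Mrps11 and Mrpl46 share one. Symbol prefix and structure do not fully coincide. Mrps30 and Mrps18a encode proteins of the large subunit, so 48 genes belong to the large and 26 to the small subunit, and Mrps36 encodes a component of the 2-oxoglutarate dehydrogenase complex. Mrpl47 had no region, and Mrpl57 and Mrpl58 were listed under older symbols (Mrp63 and Ict1) that the prefix rule does not take.

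The hearts came from male C57BL/6J mice aged 12 weeks. They received a diet free of the branched-chain amino acids leucine, isoleucine and valine (BCAA-free) or a control diet that contained them, from 4 days before sham surgery or transverse aortic constriction (TAC) until collection 2 weeks after surgery. TAC narrows the aorta and loads the left ventricle with pressure. The 4 groups, each with 1 library from a pool of 3 hearts, were control diet with sham surgery (control-sham), control diet with TAC (control-TAC), BCAA-free diet with sham surgery (free-sham) and BCAA-free diet with TAC (free-TAC), and the pooled input library was not used here. Group names were taken from the titles, since 3 samples have a treatment field that differs from their title. With 1 library per group there is no replicate check and no test between groups. Each ratio lies between pools, and its exact 95% Clopper-Pearson interval covers counting error only. In whole hearts, a different share of a cell type and a different signal per cell cannot be told apart.

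The mitochondrial ribosome translates the few messenger RNAs made from mitochondrial DNA, all of which encode subunits of the respiratory chain and ATP synthase. Its ribosomal RNAs come from mitochondrial DNA, whereas all its proteins are encoded in the nucleus, made in the cytosol and imported. Some of these proteins have bacterial homologues and others are found in mitochondria only. Heart muscle is rich in mitochondria, and in human, mutations in MRPL3, MRPL44 and MRPS22 are known causes of cardiomyopathy in infancy.

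Promoter sequences of 66 of the 75 genes were matched by symbol in RefSeq (GRCm38.p6, the assembly of mm10), each running from 250 bases before to 50 bases after the annotated start. They were searched on both strands for a core of the NRF1 motif (GCATGCG), an ETS motif as bound by GABP (CCGGAAG), a core of the YY1 motif (ATGGCGG), an SP1 motif (GGGCGG) and a TATA motif (TATAAA). NRF1, GABP and YY1 are activators known from promoters of nuclear genes for mitochondrial proteins. The following sequences, 5′ to 3′ along the gene, belong to the member with the highest mean signal (Mrpl43, chr19:45006393-45006692, minus strand), the member with the highest TAC ratio on the control diet (Mrps27, chr13:99344536-99344835, plus strand), the member with the lowest diet ratio after TAC (Mrpl23, chr7:142532782-142533081, plus strand) and the promoter from which Mrps11 and Mrpl46 run in opposite directions (shown along Mrps11, chr7:78782881-78783180, plus strand). Capitals mark every match to the motifs above on either strand. Mrps11 was added after its values were seen.
Mrpl43: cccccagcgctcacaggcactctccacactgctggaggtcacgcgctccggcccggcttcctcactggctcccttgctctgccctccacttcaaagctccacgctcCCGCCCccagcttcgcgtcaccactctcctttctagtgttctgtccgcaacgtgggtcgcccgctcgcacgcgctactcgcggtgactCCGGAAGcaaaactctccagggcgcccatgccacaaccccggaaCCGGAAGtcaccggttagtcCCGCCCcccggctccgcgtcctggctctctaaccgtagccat
Mrps27: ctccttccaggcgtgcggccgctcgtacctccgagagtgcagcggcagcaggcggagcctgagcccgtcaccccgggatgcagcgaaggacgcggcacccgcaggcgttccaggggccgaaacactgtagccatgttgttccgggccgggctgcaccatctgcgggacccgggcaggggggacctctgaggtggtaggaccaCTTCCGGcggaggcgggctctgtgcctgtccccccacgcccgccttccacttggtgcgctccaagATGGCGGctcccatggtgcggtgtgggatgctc
Mrpl23: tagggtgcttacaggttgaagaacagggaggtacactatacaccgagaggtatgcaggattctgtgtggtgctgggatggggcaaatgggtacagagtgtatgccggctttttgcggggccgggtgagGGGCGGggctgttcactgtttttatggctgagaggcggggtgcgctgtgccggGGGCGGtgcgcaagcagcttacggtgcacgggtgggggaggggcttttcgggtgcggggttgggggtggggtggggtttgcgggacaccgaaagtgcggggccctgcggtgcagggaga
Mrps11: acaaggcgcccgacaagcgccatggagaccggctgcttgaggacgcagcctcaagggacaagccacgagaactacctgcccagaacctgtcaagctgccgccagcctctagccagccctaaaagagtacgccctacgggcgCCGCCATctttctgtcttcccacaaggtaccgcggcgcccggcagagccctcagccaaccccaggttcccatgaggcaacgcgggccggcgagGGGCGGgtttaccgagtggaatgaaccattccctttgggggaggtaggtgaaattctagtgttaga

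The Mrpl43 window held the ETS motif at both positions capitalised as CCGGAAG, together with SP1 matches. In the Mrps27 window an ETS match on the opposite strand (CTTCCGG) lay upstream of the start, and a YY1 match followed the start. The Mrpl23 window held SP1 matches only. In the window of Mrps11, a YY1 match on the opposite strand (CCGCCAT) and an SP1 match were found, and the annotated starts of Mrps11 and Mrpl46 were 42 bp apart. Mrps11 encodes a small-subunit protein with a bacterial homologue, and Mrpl46 a mitochondria-specific protein of the large subunit.

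Over the 72 promoter windows of the 66 genes, the ETS motif was present in 24 windows (33.3%), against 17% of the 12774 windows that lie in promoter and CpG island regions and 8.86% of all 32817 windows. The YY1 core was present in 13 (18.1%), against 7.87% and 4.05%, and the NRF1 core in 8 (11.1%), against 6.26% and 3.57%. SP1 matches were present in 38 windows (52.8%), which is below the 65.5% of windows in promoter and CpG island regions and above the 35.6% of all windows. The TATA motif was found in 5 (6.94%), against 6.29% and 13.6%. Of 135 matches in the members' windows, 4 shared bases with a match of another motif. These are matches of letters and not measured binding.

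**Figure D1:**
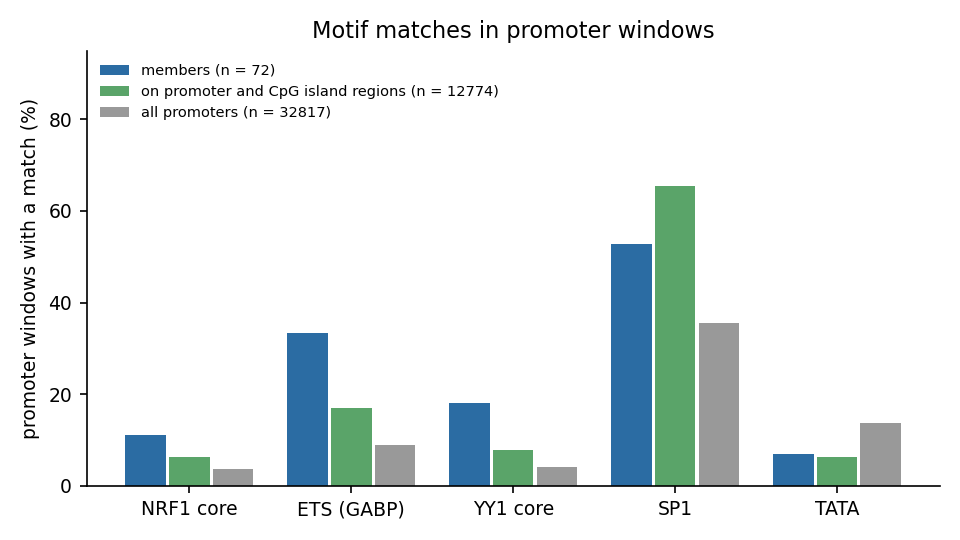
Share of promoter windows (percent, bars from 0) with at least 1 match to each motif, for the 72 windows of the members (blue), the 12774 windows in promoter and CpG island regions (green) and all 32817 windows (grey). The ETS motif is in 33.3% of members' windows against 17% and 8.86%, whereas SP1 is in 52.8% against 65.5% and 35.6%.

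Ratios of members with and without a match are given as medians, with no test. They are ratios of each gene's strongest region. In 12 of the 66 genes, Mrpl43 and Mrps27 among them, that region was not over the promoter. Such regions had a median log2 TAC ratio of 0.31 on the control diet, against 0.25 over own promoters. The first median below is that of the log2 ratio of TAC over sham on the control diet (pseudocount 1). The second is that of BCAA-free over control diet after TAC. For the ETS motif they were 0.30 and -0.25 with a match (24 regions) and 0.25 and -0.29 without one (41 regions). For the YY1 core the same medians were 0.20 and -0.34 with a match (13 regions) and 0.27 and -0.25 without one (53 regions), where the region of Mrps11 and Mrpl46 counts in both. For the NRF1 core they were 0.35 and -0.25 with a match (8 regions) and 0.25 and -0.29 without one (57 regions). The widest gap on the control diet was that for NRF1, which rests on the fewest regions.

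The members' regions were mostly CpG island promoters. Of the 74 regions, 68 (91.9%) held both a promoter and a CpG island, against 31.4% of all regions, 5 held a promoter only and 1 a CpG island only. All regions include those that are the strongest of no gene, so this share is not matched to the rule. Other genes were listed with 58 of the 74 regions, and 40 contained several promoters, so these values are shared with neighbouring genes. The region lay over the gene's own RefSeq promoter in 54 genes and elsewhere in 12, and 9 genes had no window to compare. Regions were 1799 to 30399 bp long, with a median of 4999 bp. Coordinates are those of the deposited table on mm10. All 4 libraries had a called region in 67 of the 74. This count describes regions chosen for their high signal, 72 of them at or above the median of all regions. It is not set against a share among other regions.

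Approximate tags per member region ranged from 53.2 to 4169, with medians of 334 in control-sham, 424 in control-TAC, 317 in free-sham and 345 in free-TAC. The members took 0.263%, 0.292%, 0.266% and 0.269% of the tags in all 30965 regions in that order. How the authors scaled the libraries is not given in the sources used here, and the control-TAC library also had the highest median signal over all regions (10.2, against 9.24 to 9.36 in the others).

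The level at mitochondrial ribosomal protein genes was close to that at other genes chosen by the same rule. Their mean average signal over the 4 libraries (coverage as deposited) ranged from 8.10 to 36.4 with a median of 16.7, against 15.7 over all 18161 genes, each again at its strongest region. With the region nearest to each start the members' median was 15.8. The medians of 9.36 for all regions and 15.2 for the 9713 regions with a promoter and a CpG island include regions that are the strongest of no gene, so they are not matched to the rule, and all these levels are a description. Within the family, the median was 16.9 over the 48 regions of large-subunit genes and 15.2 over the 26 of small-subunit genes. It was 19.1 over the 29 regions of genes for mitochondria-specific proteins and 15.2 over the 45 of genes with a bacterial homologue. These contrasts use each gene's strongest region. The median was 20.3 over the 12 chosen regions off the gene's own promoter and 15.8 over the 53 on it.

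The strongest region was that of Mrpl43, a mitochondria-specific protein of the large subunit, at chr19:45011600-45033399. Its average signal was 34 in control-sham, 42.8 in control-TAC, 31.2 in free-sham and 37.6 in free-TAC. Both TAC libraries were above both sham libraries there by average signal, while by peak signal, the height at the region's maximum, the log2 ratio of TAC over sham on the BCAA-free diet was -0.08. The midpoint of that region lies 16057 bp upstream of the gene, and it also lists Peo1, Lzts2, Pdzd7 and Sema4g. The promoter printed above sits in a weaker region of its own (mean signal 15.2), with 14.1, 18.4, 13.5 and 14.9 in the same library order. Mrpl49 (mean 33.5), Mrpl53 (31.8) and Mrpl20 (31.4) followed, and in each of these the region was again not over the gene's own promoter.

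The weakest member was Mrpl28, a large-subunit protein with a bacterial homologue, with an average signal of 7.21 in control-sham, 9.23 in control-TAC, 7.73 in free-sham and 8.21 in free-TAC. Mrps12, a small-subunit protein of the decoding centre, had 9.23, 11.9, 6.62 and 8.35 in the same order, in a region 8682 bp downstream of its start that holds a CpG island and no promoter. Mrpl35, with 8.71, 10.01, 9.95 and 8.88, and Mrps2, with 10.7, 11.9, 8.25 and 9.89, were the next in order. All 4 of these genes had their highest signal in the control-TAC library, as did most of the family.

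Across the family, the control-TAC library stood highest. It had the highest average signal in 67 of the 74 regions (90.5%), against 81.4% of promoter and CpG island regions and 48.9% of all regions. The free-TAC library was highest in 4, against 6.67% of promoter and CpG island regions and 19.8% of all regions. Free-sham was highest in 3 (against 8.57% and 20.3%) and control-sham in 0 (against 3.35% and 11%). The lowest library was free-sham in 27 regions (36.5%, against 27.1% of promoter and CpG island regions and 30% of all regions). It was free-TAC in 25 (33.8%, against 45.1% and 38.4%) and control-sham in 22 (29.7%, against 26.3% and 19.8%). Median signals were 16 for control-sham, 18.8 for control-TAC, 16.4 for free-sham and 15.9 for free-TAC, and those of promoter and CpG island regions were 14.5, 17.6, 14.6 and 14.2.

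**Figure D2:**
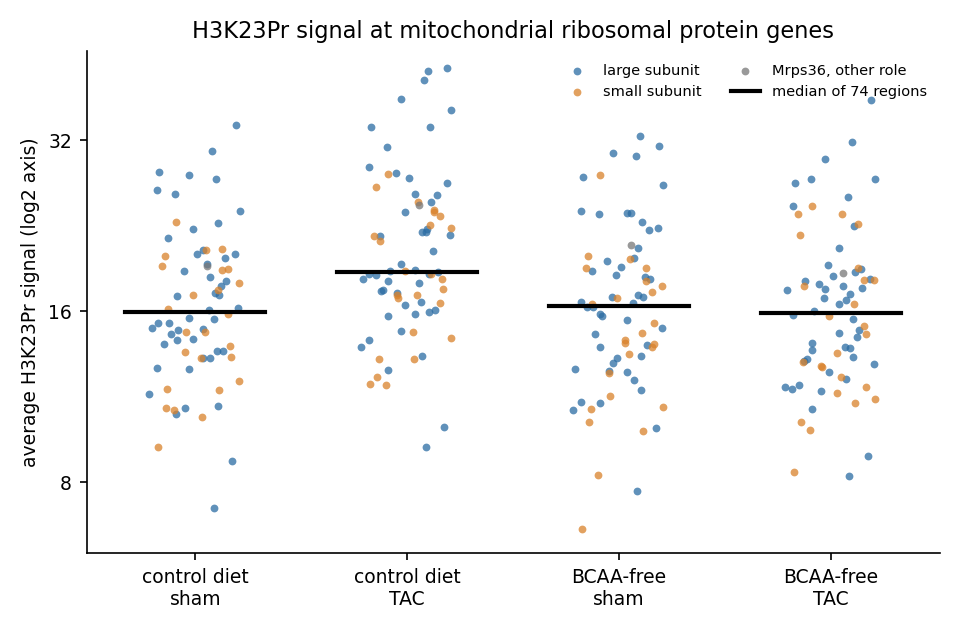
Average H3K23Pr signal (coverage as deposited, log2 axis) of the 74 member regions in each library, with large-subunit genes in blue, small-subunit genes in orange and Mrps36 in grey; each point is a region and black lines are medians. The median of the control-TAC library is 18.8, and the other 3 lie between 15.9 and 16.4.

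The first comparison asked how pressure overload on the control diet related to the mark. Nearly the whole family was higher in the TAC library. Of 74 regions, 73 had a log2 ratio above 0, with a median of 0.27 and a range of -0.10 to 0.63, while 68.7% of all regions and 92.8% of promoter and CpG island regions were above 0. The counting interval of the ratio lay above 1 in 51 members and below 1 in 0, against 40.9% and 11.6% of all regions and 70.2% and 1.76% of promoter and CpG island regions. The median of promoter and CpG island regions was also 0.27, and that of all regions 0.16, so the members' median was 0.12 above all regions and 0.0026 above the CpG island promoters. A ratio of at least 1.5-fold was reached upward by 3 members and downward by 0, where the background over all regions was 5.74% upward and 2.19% downward and over promoter and CpG island regions 4.33% and 0.0309%. Centred on either median, or scaled to equal summed tags, 0 members reached 1.5-fold.

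The 3 members past 1.5-fold were Mrps27, Mrpl19 and Mrpl49. Mrps27 encodes a mitochondria-specific protein of the small subunit, and its region (chr13:99407800-99416199) had signals of 11.6 in control-sham, 18.6 in control-TAC, 9.86 in free-sham and 11 in free-TAC. The control-TAC library stood alone there, 1.6-fold above its sham library (interval 1.42 to 1.81). This region lies 67213 bp from the start of Mrps27 and is also assigned to Map1b, a microtubule-associated protein gene. The region over the Mrps27 promoter printed above (chr13:99339200-99345599) had 12.1, 14.9, 11.1 and 12.2, a ratio of 1.23 (1.07 to 1.42), close to the median of CpG island promoters (1.22).

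Mrpl19, a large-subunit protein with a bacterial homologue, had signals of 10.8 in control-sham, 17.2 in control-TAC, 12.5 in free-sham and 11.6 in free-TAC, at a promoter region shared with Gcfc2 (chr6:81964200-81966799). Again control-TAC stood apart from the other libraries, 1.6-fold above control-sham (1.27 to 2.02). Mrpl49, a mitochondria-specific large-subunit protein, had 27.4, 42.4, 32.5 and 31.7 in a region 10152 bp from its start that also lists Syvn1 and Fau, and the ratio was 1.55 (1.41 to 1.70). The nearest below the threshold were Mrpl32, named after its values were seen, with 24, 36.1, 26.6 and 27.3 and a log2 ratio of 0.57, and Mrpl40 with 0.55. Mrpl40, a large-subunit protein whose promoter region is shared with Hira, had 18.9, 28, 19.6 and 17.8 and a ratio of 1.48 (1.31 to 1.67).

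At the other end, Mrpl42, Mrpl27 and Mrpl51, all of the large subunit, were nearly level between the control diet libraries. Mrpl42 had 13.2 with sham surgery and 13.4 with TAC (ratio 1.01, 0.827 to 1.23), and its BCAA-free libraries were both at 12.1. Mrpl27 had 16.1 and 16.6 (1.03, 0.848 to 1.26), and Mrpl51 had 18.1 and 18.7 (1.04, 0.933 to 1.15). The region shared by Mrps11 and Mrpl46, which holds the promoter printed above, had 17 and 18.1 (1.06, 0.891 to 1.28). Mrpl45 was the single member with a ratio below 1. Its protein anchors the mitochondrial ribosome to the inner membrane near the exit of the nascent chain, and its region 6017 bp upstream had 19.4 with sham surgery and 18 with TAC (0.926, 0.822 to 1.04). A weaker region over its own promoter had 12.3 and 13 (1.05, 0.838 to 1.32).

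The mouse counterparts of the human cardiomyopathy genes differed among themselves. Mrpl3, near the peptidyl transferase centre of the large subunit, had 10.6 in control-sham, 12.6 in control-TAC, 11 in free-sham and 10.8 in free-TAC, and its TAC ratio on the control diet was 1.19 (0.938 to 1.51). Mrpl44, a large-subunit protein, had 21.5, 21.8, 18.8 and 13.1, where the free-TAC library was the low one and the control diet ratio was 1.01 (0.815 to 1.26). Mrps22, of the small subunit, had 14.7, 16.9, 11.3 and 12.8, with both BCAA-free libraries below both control diet libraries (TAC ratio on the control diet 1.15, 0.917 to 1.45). All 3 intervals included 1. Mrpl12, the stalk protein of the large subunit, which is also reported to bind the mitochondrial RNA polymerase, had 14.9, 18.9, 15.4 and 14.7 and a ratio of 1.27 (1.16 to 1.39).

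The BCAA-free diet was then examined in the same way, between its own sham and TAC libraries. Here the family was split evenly around no difference. The log2 ratio of TAC over sham was above 0 in 37 of 74 regions, against 46.6% of all regions and 39.9% of promoter and CpG island regions. Its median was -0.00033 and its range -0.49 to 0.43, beside medians of -0.03 for all regions and -0.05 for promoter and CpG island regions. No member reached 1.5-fold in either direction (0 higher and 0 lower), where the background over all regions was 8.05% upward and 9.23% downward and over promoter and CpG island regions 0.906% and 1.99%. The counting interval lay above 1 in 11 members, against 25.4% of all and 15.1% of promoter and CpG island regions, and below 1 in 14, against 28% and 23.5%.

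The members with the highest ratios on the BCAA-free diet were Mrpl39, Mrpl14 and Mrpl36. Mrpl39, a mitochondria-specific large-subunit protein, had 12.7 with sham surgery and 17.4 with TAC, a ratio of 1.37 (1.18 to 1.6), and its control diet libraries had 14.9 and 18.2. Mrpl14, which sits at the interface of the subunits, had 13 and 17.5, a ratio of 1.35 (1.27 to 1.44), and 12.7 and 14.8 on the control diet. Mrpl36, a large-subunit protein with a bacterial homologue whose region also lists the complex I gene Ndufs6, had 12.5 and 16.5 (1.32, 1.19 to 1.45), and 13.3 and 15.9 on the control diet. In all 3, each TAC library was above both sham libraries.

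The lowest ratios on the BCAA-free diet were those of Mrpl44, Mrpl16 and Mrpl45. The Mrpl44 signal was 18.8 with sham surgery and 13.1 with TAC, 1.44-fold lower (1.11 to 1.86), and the region was not called in the free-TAC library. Mrpl16, a protein of the large subunit close to its catalytic centre, had 16.3 and 11.9, 1.37-fold lower (1.08 to 1.74), against 14 and 18.6 on the control diet. At Mrpl45 the distal region had 23.8 and 17.8, 1.34-fold lower (1.2 to 1.5), and the region over its own promoter had 15.3 and 16.4 (ratio 1.07, 0.873 to 1.31). The direction at Mrpl45 thus differed between the regions assigned to it.

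**Figure D3:**
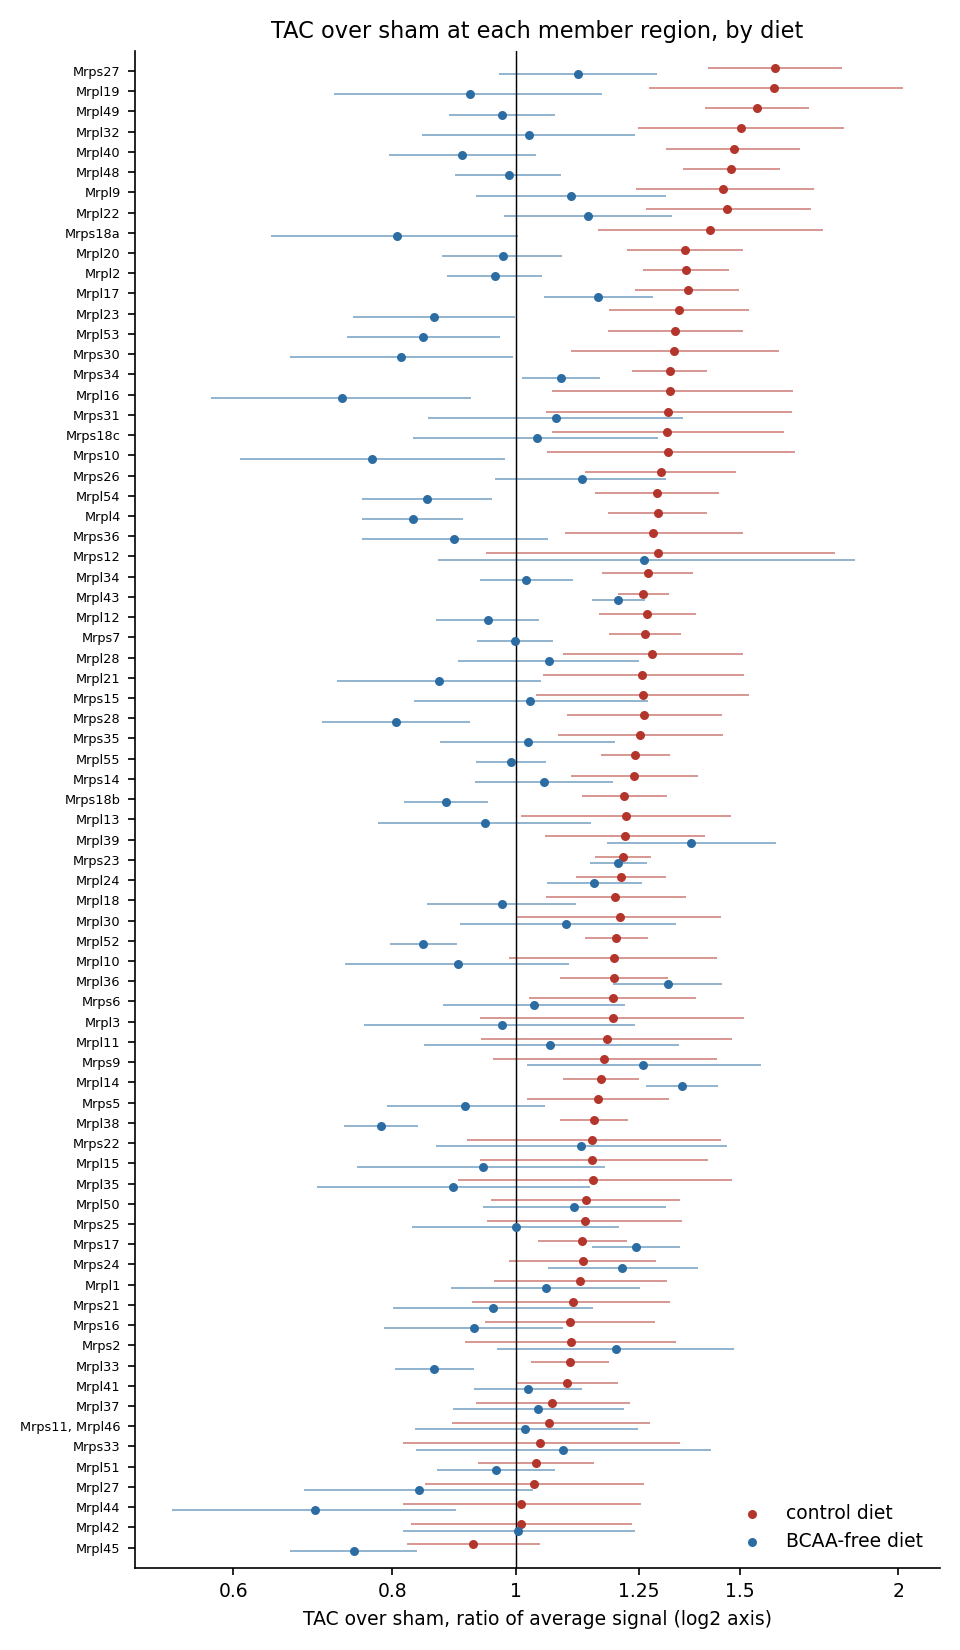
Ratio of average signal, TAC over sham (log2 axis), for each of the 74 member regions on the control diet (red) and the BCAA-free diet (blue), ordered by the control diet log2 ratio; lines are exact 95% Clopper-Pearson intervals of counting error. On the control diet 73 regions are above 1, and on the BCAA-free diet 37 are.

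The third comparison was between diets in hearts without pressure overload. The family was level here, with a median log2 ratio of BCAA-free over control diet of 0.0039 and a range of -0.42 to 0.41. Of the 74 regions, 38 were above 0, against 49.1% of all regions and 52.2% of promoter and CpG island regions. None reached 1.5-fold (0 higher and 0 lower), with backgrounds of 2.76% and 2.62% over all regions and 0.278% and 0.34% over promoter and CpG island regions. The counting interval lay above 1 in 8 members, against 18.2% of all and 15.3% of promoter and CpG island regions, and below 1 in 8, against 17.9% and 13.3%.

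The highest ratio in sham hearts was at Mrps28, a small-subunit protein whose region also lists Tpd52. Its signal was 10.4 on the control diet and 14.2 on the BCAA-free diet (1.36, 1.19 to 1.57). Mrpl45 had 19.4 and 23.8 (1.23, 1.1 to 1.37), and Mrps18b, of the small subunit, had 22.9 and 27.8 (1.21, 1.12 to 1.31). At the low end were Mrps22, with 14.7 and 11.3 (1.3-fold lower, 1.01 to 1.68), Mrps2, with 10.7 and 8.25 (1.3-fold lower, 1.06 to 1.61), and the region shared by Mrps11 and Mrpl46, with 17 and 13.8 (1.23-fold lower, 1.018 to 1.5). The lowest ratio of all members was that of Mrps12, with 9.23 and 6.62, 1.39-fold lower with an interval that included 1 (0.968 to 2.03). Its mean signal lay below the median of all regions. Small-subunit genes thus stood at both ends of this order.

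The fourth comparison was between diets under pressure overload. Nearly all members were lower on the BCAA-free diet. The log2 ratio was below 0 in 70 of 74 regions, with a median of -0.29 and a range of -0.71 to 0.23, against 70.2% below 0 among all regions and 91.8% among promoter and CpG island regions, whose medians were -0.20 and -0.31. The members' median was therefore -0.10 relative to all regions and 0.019 relative to the CpG island promoters, so its sign depends on that reference. A difference of at least 1.5-fold downward was reached by 7 members and upward by 0, where the background was 9.42% downward and 3.82% upward over all regions and 9.14% and 0.113% over promoter and CpG island regions. With either centring, or with equal summed tags, 0 members were this low. The interval lay below 1 in 52 members, against 46.3% of all regions and 74.8% of promoter and CpG island regions, and above 1 in 2, against 14.4% and 3.54%. This comparison shares the control-TAC library with the first and the free-TAC library with the second.

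The 7 members were Mrpl23, Mrps27, Mrpl44, Mrpl53, Mrps18a, Mrpl40 and Mrpl16, of which Mrps27 alone belongs to the small subunit. Mrpl23, a protein beside the exit of the nascent chain, had the lowest ratio, in the region around the promoter printed above (chr7:142530800-142536799). Its signals were 16.2 in control-sham, 21.8 in control-TAC, 15 in free-sham and 12.9 in free-TAC. The TAC libraries were the highest and the lowest of the 4, 1.69-fold apart (1.47 to 1.93). Mrpl53, a mitochondria-specific large-subunit protein, showed the same order of extremes, with 30.7, 40.9, 30.1 and 25.4 in a region shared with Ccdc142, and was 1.61-fold lower (1.41 to 1.83).

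Mrps18a, a large-subunit protein despite its symbol, had signals of 15.5 in control-sham, 22.1 in control-TAC, 17.1 in free-sham and 13.8 in free-TAC. The free-TAC library was the lowest, 1.6-fold below control-TAC (1.3 to 1.99). Its region (chr17:46110000-46112399) lists no other gene and lies over its own promoter. Mrpl44, likewise alone in its region (chr1:79775400-79777199), was 1.66-fold lower (1.3 to 2.14). Mrpl40 was 1.57-fold lower (1.39 to 1.77) and Mrpl16 was 1.56-fold lower (1.248 to 1.97). At the region of Mrps27 near Map1b the free-TAC library was 1.68-fold lower (1.49 to 1.91), and over its own promoter the ratio was 0.823 (0.713 to 0.951).

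The highest diet ratio after TAC was that of Mrpl14, with 14.8 on the control diet and 17.5 on the BCAA-free diet (1.19, 1.11 to 1.26), but by peak signal its log2 ratio was -0.27. Mrps17, Mrpl50 and Mrpl36 were the other members above 0, with log2 ratios of 0.12, 0.06 and 0.05, the former pair named after their values were seen. By peak signal these were -0.35, -0.19 and -0.51, so at all 4 members the direction turned with the measure. Mrps24, a small-subunit protein, had 13.2 and 13 (0.989, 0.870 to 1.13), and Mrpl45 had 18 and 17.8 (0.988, 0.874 to 1.12). The region of Mrps23, a mitochondria-specific small-subunit protein, spans 30399 bp, the longest in the family, with 24.9 and 23.8, and its signals with sham surgery were 20.5 and 19.7. These values show TAC above sham on both diets at Mrps23, by 1.21 (1.15 to 1.28) on the control diet and 1.2 (1.14 to 1.27) on the BCAA-free diet, where the log2 ratio by peak signal was -0.01.

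**Figure D4:**
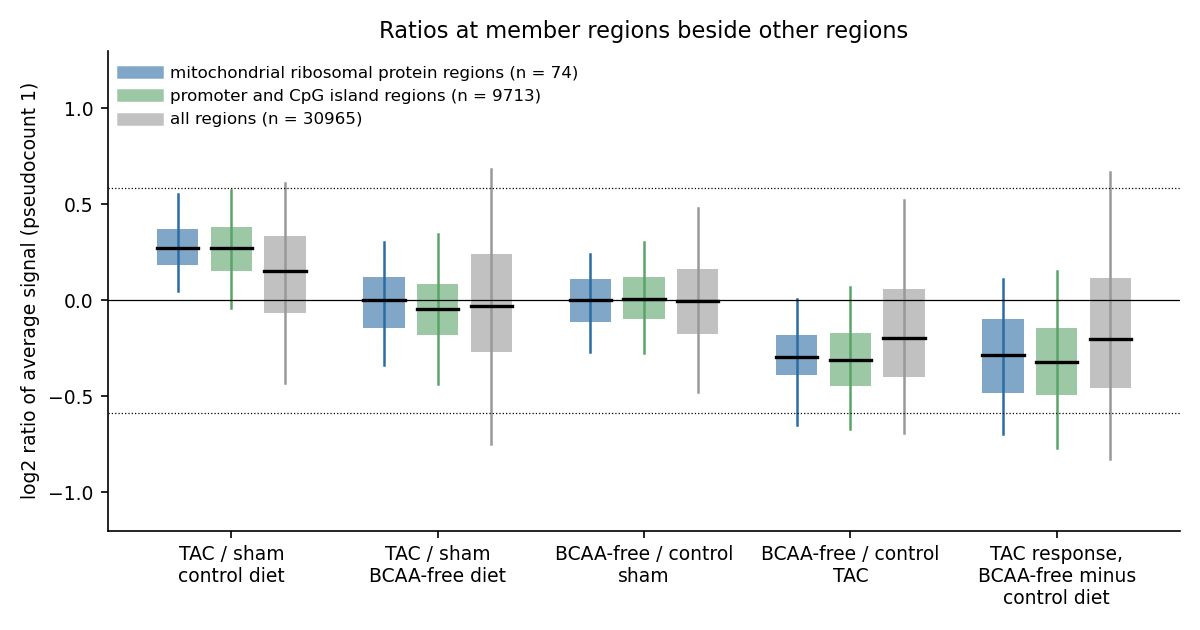
Log2 ratios of average signal (pseudocount 1) for the 74 member regions (blue), 9713 promoter and CpG island regions (green) and all 30965 regions (grey) in each comparison; black bars are medians, boxes span the quartiles, vertical lines the 5th to 95th percentiles, and dotted lines mark 1.5-fold. The members' medians are 0.27 and -0.00033 for TAC over sham on the control and BCAA-free diets and -0.29 for the diets after TAC, beside 0.27, -0.05 and -0.31 in promoter and CpG island regions.

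Subtracting the log2 TAC ratio of the control diet from that of the BCAA-free diet gives a difference of responses, which had a median of -0.28 over the members, -0.32 over promoter and CpG island regions and -0.20 over all regions. It was below 0 in 66 of 74 members, against 67.2% of all regions and 88% of promoter and CpG island regions. A difference of at least 1.5-fold downward was found in 11 members and upward in 0, with backgrounds of 14.8% and 6.8% over all regions and 15.3% and 0.268% over promoter and CpG island regions. Its counting interval (normal approximation) lay below 0 in 36 members, against 38% of all and 60.2% of promoter and CpG island regions, and above 0 in 1, against 14.8% and 4.72%. Mrpl16 had the lowest value, -0.86 on the plain log2 scale (-1.31 to -0.41), followed by Mrps18a with -0.82 (-1.24 to -0.39) and Mrpl19 with -0.79 (-1.26 to -0.33). Mrpl14 was the member whose interval lay above 0 (0.21, 0.08 to 0.35), and by peak signal its difference was -0.17.

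The spread within the family was somewhat larger than counting alone gives. The SD of the members' log2 ratios was 0.15, 0.20, 0.16 and 0.20 in the 4 comparisons in the order above, and the root mean square counting error of a member's log2 ratio was 0.12 in each. Set against the median ratio of promoter and CpG island regions, the counting interval included that median in 58, 50, 57 and 51 of the 74 members, against 67.1%, 63.7%, 71.3% and 61% of promoter and CpG island regions and 55.4%, 47.3%, 63.8% and 51.8% of all regions. In the first comparison 12 members lay above it and 4 below, against 13.6% and 19.2% of promoter and CpG island regions and 9.11% and 35.5% of all regions. In the fourth, 14 members lay above and 9 below, against 23.2% and 15.9% of promoter and CpG island regions and 37.6% and 10.6% of all regions. An interval is narrower where a region holds more tags. Over the 74 members the log2 ratios of TAC over sham on the control and BCAA-free diets, which have no library in common, had a Pearson correlation of 0.03, a description across regions that are not independent replicates.

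Split by subunit, the family was alike in the control diet comparison, with a median log2 ratio of 0.27 in both the large and the small subunit. On the BCAA-free diet the median of TAC over sham was -0.03 for the large subunit, where 19 of 48 were above 0, and 0.06 for the small subunit, where 19 of 26 were. The background above 0 was 46.6% of all regions and 39.9% of promoter and CpG island regions, the latter close to the large subunit. In sham hearts the median of BCAA-free over control diet was 0.04 for the large subunit, with 29 of 48 above 0, and -0.09 for the small subunit, with 8 of 26. Here the background above 0 was 49.1% of all regions and 52.2% of promoter and CpG island regions. These last comparisons share the free-sham library, and no test of the difference between subunits was made. After TAC the diet medians were -0.30 and -0.28. Genes with bacterial homologues and genes for mitochondria-specific proteins had medians of 0.27 and 0.27 for TAC on the control diet, and -0.27 and -0.29 for diet after TAC.

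Other genes of mitochondrial translation were also mostly higher after TAC on the control diet. The median log2 ratio of TAC over sham was 0.21 at the 6 mitoribosomal subunit genes with other symbols, 0.33 at 15 mitochondrial translation factor genes, 0.41 at 18 of 20 mitoribosome assembly factor genes and 0.22 at 8 of 9 mitochondrial transcription genes. The control-TAC library was the highest in 15 of 15 translation factor regions and 18 of 18 assembly factor regions, against 81.4% of promoter and CpG island regions and 48.9% of all regions. Beside a background of 4.33% of promoter and CpG island regions and 5.74% of all regions, at least 1.5-fold higher was 1 translation factor gene, Tufm, the mitochondrial elongation factor Tu, with a log2 ratio of 0.61, and among assembly factors 2 genes, Mrm3, a methyltransferase of mitochondrial ribosomal RNA listed as Rnmtl1 (0.66), and Ddx28, a helicase (0.64). At the low end were Mrrf, the mitochondrial ribosome recycling factor (0.14), and Eral1, an assembly GTPase (0.09). Among the subunits with other symbols the range ran from 0.10 at Ptcd3, a small-subunit protein, to 0.40 at Gadd45gip1, a large-subunit protein. The regions used for Tufm and Gadd45gip1 lie 15244 and 13417 bp from the starts of these genes. On the BCAA-free diet the medians of these 4 groups were 0.05, 0.01, 0.0029 and -0.03, and for diet after TAC -0.19, -0.41, -0.30 and -0.27.

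The 77 regions of cytosolic ribosomal protein genes had medians of 0.29 for TAC on the control diet, 0.01 for TAC on the BCAA-free diet and -0.32 for diet after TAC, beside 0.27, -0.00033 and -0.29 at the mitochondrial ribosomal protein genes. The 79 regions of respiratory chain subunit genes, taken by symbol with Sdh (complex II) and Atp5 (ATP synthase) genes included, had 0.26, 0.13 and -0.15. On the BCAA-free diet the TAC ratio was above 1 in 63 of the 79 respiratory chain regions and in 37 of the 74 members. The background was 46.6% of all regions and 39.9% of promoter and CpG island regions. With 1 library per group this difference between the gene groups was not tested.

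Markers of cell types differed between the libraries and are given beside these medians. All lists had a region for each of their 10 genes, and 0 markers were at 0 in any library. The summed signal of the cardiomyocyte markers was 117 in control-sham, 134 in control-TAC, 119 in free-sham and 174 in free-TAC, and that of the fibroblast markers was 131, 132, 172 and 109. For endothelial markers the sums were 200, 243, 160 and 201, and for macrophage markers 130, 146, 125 and 106. The free-TAC library thus had the highest cardiomyocyte and the lowest fibroblast marker signal, where the members' median was the lowest of the 4 libraries by a small margin. Sums follow the strongest regions, some of them far from the gene's start (144189 bp at Flt1, 21444 bp at Tnni3). Markers of a list did not all move alike on the control diet. On the control diet the log2 TAC ratio was above 0 in 9 cardiomyocyte, 4 fibroblast, 9 endothelial and 3 macrophage marker regions. It was below 0 in 1, 6, 1 and 6, with C1qa and C1qb sharing a region, and above 0 in 68.7% of all regions. On the BCAA-free diet it was above 0 in 10, 0, 7 and 2 marker regions in the same order, against 46.6% of all regions. For diet after TAC the log2 ratio was below 0 in 1, 8, 9 and 9, against 70.2% of all regions. The part of cell composition in the members' ratios was not tested.

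**Figure D5:**
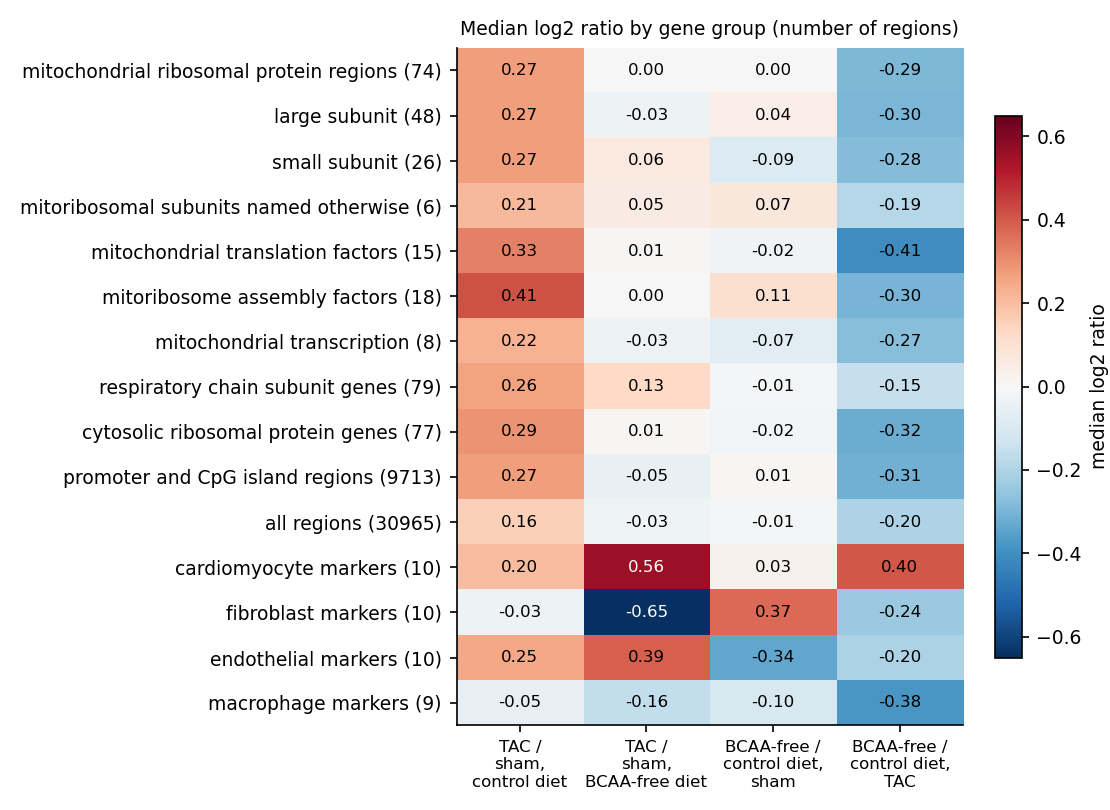
Median log2 ratio of average signal (pseudocount 1, colour and number) for the members, their subunits, related gene groups, region classes and cell type markers (rows, with the number of regions) in the 4 comparisons (columns). The members' row (0.27 and -0.29 in the first and last columns) lies close to that of promoter and CpG island regions (0.27 and -0.31), and the fibroblast and cardiomyocyte marker rows differ most from it in the second column (-0.65 and 0.56).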

How the data were processed

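Per the submitters' processing notes, BWA, MACS2 and the mouse build mm10 were used, with no versions or roles given. The authors deposited 1 table of 30965 merged regions with, per the file headers, average and peak signal (coverage) in each of 4 H3K23Pr libraries, maximum tags, promoter and CpG island counts, and assigned genes. The labelled distance lies within 100 bp of that from the region's midpoint to the RefSeq start in 62 of 66 genes. The authors also deposited log2 ratios, which equal those recomputed from the average signal to within 8.88e-16 and were used for that check only. The scaling between libraries is not given in the sources used here. No input was subtracted here.

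Here, log2 ratios were taken of the average signal plus a pseudocount of 1, and members at least 1.5-fold apart were counted beside all regions and beside regions with a promoter and a CpG island. Approximate tags were the average signal times length over 224, which returns the deposited maximum tags. Folds of single genes are plain ratios with exact 95% Clopper-Pearson intervals from those tags, and differences between diets have normal intervals on the log2 scale. PCR reads are not independent molecules. With 1 library per group no p-value was computed, and an additive model over the 4 libraries was not run. The code was tested on simulated data. Python 3.11.15, pandas 2.3.3, numpy 2.4.6 and scipy 1.17.1 were used.

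The members and lists were chosen with earlier results of these data known. Named genes are the 4 highest and 4 lowest in mean signal, the 3 highest and 3 lowest of each comparison (if not below the median signal of all regions and alike in sign by peak signal), those past 1.5-fold, the 3 farthest from their start and 6 picked for known roles. Mrps14 and Mrpl55, among the farthest from their start, enter the recomputed values of the named genes and are not described here. Promoter sequences are RefSeq's (GRCm38.p6). Alternatives were pseudocounts of 0.1 and 5, peak signal, a fold of 1.25, other region choices and centring. Scaling to equal summed tags and restriction to regions over the gene's own promoter were chosen after seeing the data.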

Additional observations from a re-analysis of the deposited data

Results flagged for a closer look

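At 5 of the named genes the TAC ratio lay above 1 on the control diet and below 1 on the BCAA-free diet, with both counting intervals on their side of 1. The ratios were 1.32 and 0.730 at Mrpl16, 1.34 and 0.863 at Mrpl23, 1.33 and 0.846 at Mrpl53, 1.22 and 0.882 at Mrps18b, and 1.26 and 0.806 at Mrps28, for the control and the BCAA-free diet. By peak signal the log2 ratio of Mrps18b on the BCAA-free diet was 0.01, the opposite sign. Each ratio compares 1 library with 1 library, and the difference between diets was not tested beyond counting error. Over all members 12 of 74 (16.2%) had this pattern, against 14.9% of promoter and CpG island regions and 9.52% of all regions.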

How the results depend on the processing

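No paired analysis was possible because each group has 1 library. Of 190 recomputed medians and counts, 143 stayed within the limits set for a change and 47 moved. The sign of a median changed in 10 of them. In 7 this was the median for TAC on the BCAA-free diet, which lies close to 0, and in the others a centring on promoter and CpG island regions. A pseudocount of 0.1, counting each gene, members called in all 4 libraries, a mean signal filter and the region nearest to the start moved none of them beyond these limits. The median for TAC on the control diet (0.27) was 0.23 with a pseudocount of 5, 0.41 by peak signal, 0.12 centred on all regions or scaled to equal summed tags, and 0.0026 centred on promoter and CpG island regions. Its count at least 1.5-fold higher (3) was 0 with a pseudocount of 5, with either centring, with equal summed tags or over own promoters only, 1 by the mean of a gene's regions, 12 by peak signal and 29 at the lower fold. The restriction to own promoters also leaves out the 9 genes without a RefSeq window, Mrpl19 among them. For TAC on the BCAA-free diet the median (-0.00033) was -0.12 by peak signal and 0.047 centred on promoter and CpG island regions, the higher count (0) was 1 by the mean of regions and 3 at the lower fold, and the lower count (0) was 2 by peak signal and 5 at the lower fold. For diet in sham hearts the median (0.0039) was 0.059 by peak signal, the higher count (0) was 1 at the lower fold, and the lower count (0) was 1 by the mean of regions and 3 at the lower fold. For diet after TAC the median (-0.29) was -0.50 by peak signal, -0.10 centred on all regions, 0.019 centred on promoter and CpG island regions and -0.15 with equal summed tags, and the lower count (7) was 1 with a pseudocount of 5, 3 by the mean of regions, 24 by peak signal, 32 at the lower fold and 0 with either centring or equal summed tags. For the difference between diets the median (-0.28) was -0.51 by peak signal, -0.085 and 0.036 with the centrings and -0.14 with equal summed tags, the higher count (0) was 1 by the mean of regions, and the lower count (11) was 2 with a pseudocount of 5, 30 by peak signal, 6 by the mean of regions, 1 and 0 with the centrings, 32 at the lower fold, 3 with equal summed tags and 6 over own promoters. Median shifts of all regions were 0.16, -0.03, -0.01 and -0.20 in the 4 comparisons. The causes were not tested. At the named genes, 1051 of 1280 recomputed values stayed within their counting interval, and 229 moved. The sign changed in 139, of which 21 were values whose counting interval excluded no difference, 5 of them by peak signal and 2 at the region nearest to the start. No value past 1.5-fold changed sign.

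The limits are those of 1 library per group. Depth allows ratios of about the family's median to be told from 1 in most members by counting error alone, whereas spread between hearts was not measured. Differences in overall scaling between libraries and a shift of the whole class cannot be told apart.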

Other observations

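Of the 75 genes, 41 had more than 1 region (130 regions in all, at most 4 per gene). Of the 12 genes whose chosen region was not over their RefSeq promoter, 8 had another region there. The medians over the 12 chosen regions were 0.31 for TAC on the control diet and -0.26 for diet after TAC, beside 0.25 and -0.27 in the 53 regions that covered the gene's own promoter. Taking the region nearest to each start gave family medians of 0.29 and -0.29. At the promoter of Mrpl45 the free-TAC library had the highest signal of the 4, and at its stronger upstream region the lowest.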
